A study of Mus musculus with 12 samples.

Results

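Insulin-like growth factor 1 (IGF1) and the proteins that carry, receive and relay it were followed through 10 genes out of 55450 in the count table: the ligand *Igf1*, the receptor *Igf1r*, the receptor substrates *Irs1* and *Irs2*, and the binding proteins *Igfbp2*, *Igfbp3*, *Igfbp4*, *Igfbp5*, *Igfbp6* and *Igfbp7*. They were chosen by name as members of the IGF1 axis, and all 10 had enough reads to be tested. RNA came from pieces of tibialis anterior (TA) muscle of wild-type (WT) mice of the 129Pas background, taken before birth at embryonic stage E18.5 or after birth at 2 weeks (wks) or 7 wks. Each age had 4 mice, 1 library per mouse. Every group shared its genotype, strain and muscle, and the labels set the groups apart by age. Whether dissection differed between libraries is not in the labels. The study collected them to follow postnatal development of the muscle.

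IGF1 is a growth factor made by the liver and, locally, by muscle itself, where it promotes protein synthesis and growth of the fibres. It binds IGF1R, a receptor tyrosine kinase, which phosphorylates the IRS docking proteins and through them turns on the PI3K-AKT-mTOR branch and restrains the FOXO transcription factors. The IGFBPs hold IGFs outside the cell and decide how much of the ligand reaches the receptor. IGFBP7 differs from the others in binding IGFs with low affinity, and it is known as a protein of blood vessel walls.

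The stretches of 100 bases before the RefSeq transcription start are shown for 5 of the genes, because these genes differ in the direction of their change with age: *Igf1* and *Igf1r* fell after E18.5, *Igfbp4* fell after 2 wks, and *Igfbp6* and *Igfbp7* rose by 2 wks. Capitals mark a TATAAA box or a GGGCGG box on either strand, read 5′ to 3′ on the gene's own strand in build GRCm38.p6, at chr10:87861011-87861110 (+) for *Igf1*, chr7:67952157-67952256 (+) for *Igf1r*, chr11:99041144-99041243 (+) for *Igfbp4*, chr15:102144086-102144185 (+) for *Igfbp6* and chr5:77408046-77408145 (-) for *Igfbp7*.
Igf1: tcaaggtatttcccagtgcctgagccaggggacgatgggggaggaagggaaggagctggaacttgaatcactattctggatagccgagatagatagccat
Igf1r: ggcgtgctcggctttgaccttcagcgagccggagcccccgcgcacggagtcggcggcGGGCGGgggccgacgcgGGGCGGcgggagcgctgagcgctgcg
Igfbp4: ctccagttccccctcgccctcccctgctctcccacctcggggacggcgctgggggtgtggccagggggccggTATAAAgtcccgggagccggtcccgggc
Igfbp6: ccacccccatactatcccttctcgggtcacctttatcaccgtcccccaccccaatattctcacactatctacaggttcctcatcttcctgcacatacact
Igfbp7: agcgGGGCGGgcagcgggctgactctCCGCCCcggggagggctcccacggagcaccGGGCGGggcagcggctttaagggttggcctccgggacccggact
The *Igf1r* and *Igfbp7* stretches are GC-rich and hold 2 and 3 GGGCGG boxes, whereas that of *Igf1* holds neither motif. The *Igfbp4* stretch has a TATAAA box that begins 28 bases before the start. Over the 300-base windows that RefSeq gives (250 bases before to 50 after a start), the observed-to-expected ratio of CpG pairs was 1.11 for *Igf1r*, 0.83 for *Igfbp7*, 0.72 for *Igfbp4*, 0.61 for *Igfbp6* and 0.31 for *Igf1*, with a median of 0.38 over all 32851 windows. TATAAA was in 13.6% of all windows, among them those of *Igfbp4* and of *Igfbp6*, the latter outside the bases shown. GGGCGG was in 35.7% of all windows, and the whole *Igfbp7* window held 4 copies. CAGCTG, a form of the E-box that myogenic factors bind, was in 16.3% of windows and occurred once in that of *Igf1*. The spaced palindrome TTCNNNGAA, the form that STAT5 binds, was in 8.3% of windows and in none of the 11 windows of the 10 genes, of which *Igfbp2* had 2. All 10 genes were matched to RefSeq by symbol, and these are matches of letters in a window at an annotated start. For *Igf1*, *Igfbp3* and *Igfbp4* that start lies inside the span of the gene, as does the later of the 2 for *Igfbp2*.

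The libraries held 63018968 to 123449246 counted reads each. Levels below are CPM, the reads of a gene relative to all reads of its library, after scaling by TMM, a method that sets the bulk of genes equal between libraries, and levels per kb are divided by the length of the Ensembl canonical transcript. Changes come from the quasi-likelihood test of edgeR over 19276 genes with Benjamini-Hochberg adjustment, and a gene is said to have risen or fallen where the adjusted p was under 0.05. The 20 most abundant genes took 13.7% to 16.1% of reads before birth, 33.2% to 35.6% 2 wks after it and 36.4% to 37.8% in the oldest mice. Scaling to the total count instead of TMM moved the median of all genes down by 0.93 from E18.5 to 2 wks, by 0.35 from 2 to 7 wks and by 1.28 from E18.5 to 7 wks (log2), and every change below is relative to the bulk of genes. The 6 summed markers of muscle fibres (such as *Acta1*, *Ckm* and *Ttn*) ranged from 8127 to 15686 CPM before birth, from 106974 to 129448 CPM in the 2-wk mice and from 112395 to 135897 CPM in the 7-wk mice. Of these 6 genes 5 were higher at 2 wks, and the embryonic myosin *Myh3* was lower. Of the 5 adipocyte markers, the sum was 1908 and 2680 CPM in replicates 3 and 4 at E18.5 and 176 to 483 CPM in the other 10 libraries. Leaving those 2 libraries out turned the direction of no change called below, and among the changes not called it turned that of *Irs1* in the contrast between intervals (0.21 to -0.019).

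From E18.5 to 2 wks, 6 of the 10 genes changed, where 65.7% of all tested genes did. *Igfbp6* and *Igfbp7* rose (31.5% of all genes did), and *Igf1*, *Igf1r*, *Igfbp2* and *Igfbp3* fell (34.2% of all genes). All 6 had libraries that did not overlap between the ages, which held for 61.3% of all genes, 28.9% being higher and 32.4% lower. The median log2 change of the 10 genes was -0.40, beside -0.09 over all tested genes. From 2 to 7 wks, *Igfbp2*, *Igfbp3*, *Igfbp4* and *Igfbp7* fell and none rose, where 27.5% of all genes changed (13.9% lower and 13.5% higher). Libraries of the 2 ages did not overlap for *Igfbp3*, *Igfbp4* and *Igfbp7*, where 33.7% of all genes did not (16.4% lower and 17.3% higher). In that interval no member was higher at an unadjusted p under 0.05 in edgeR or past the threshold in DESeq2 either, and the median of the 10 genes was -0.80, beside -0.03 over all genes. Over the whole span from E18.5 to 7 wks, 7 genes changed, 2 higher and 5 lower, where 71.4% of all genes changed (34.3% higher and 37.1% lower). All 7 had no overlap, as had 63.4% of all genes (30.2% higher and 33.3% lower). With scaling to the total count these splits became 2 higher and 7 lower, 0 higher and 8 lower, and 0 higher and 8 lower, in the same order. The shares called are thus close to those of all genes in the first and the last comparison, and the genes are described singly below.

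**Figure D1:**
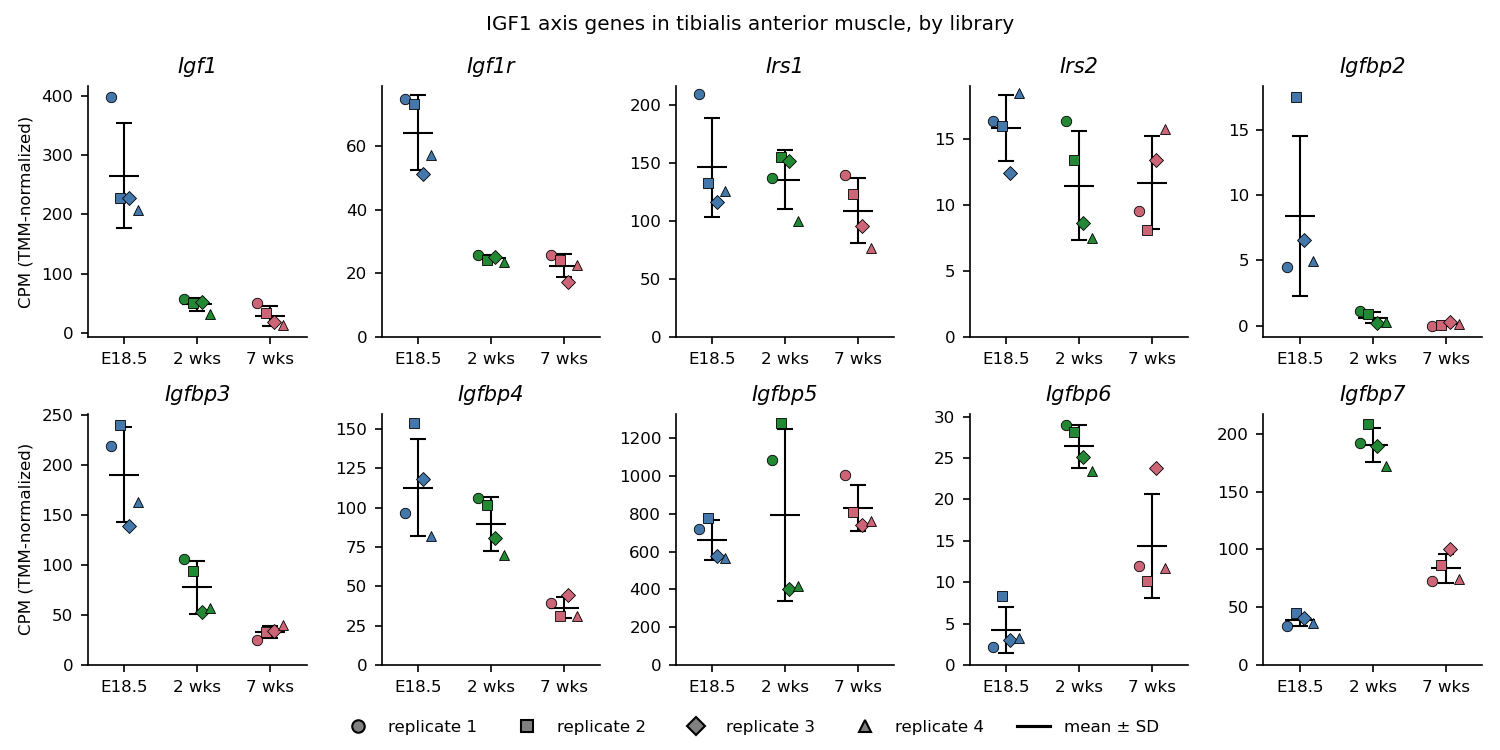
TMM-scaled CPM (y axis, a separate linear scale for each gene) of the 10 genes at E18.5, 2 wks and 7 wks. Each symbol is a library, with the replicate number by shape, and the black marks are the mean ± SD of 4. *Igf1* and *Igf1r* stand apart at E18.5, *Igfbp7* at 2 wks, and *Igfbp5* is split into a high and a low pair at 2 wks.

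The ligand showed a steep fall. *Igf1* (chr10:87858265-87937047) stood at 397, 228.0, 228 and 207 CPM in the 4 libraries at E18.5, at 58.0, 50.4, 51.7 and 32.3 CPM at 2 wks, and at 50.1, 34.5, 18.2 and 13.1 CPM at 7 wks. Every library at E18.5 was above every later library, and 2 and 7 wks overlapped, with replicates 1 and 2 at 7 wks inside the range of 2 wks. *Igf1* fell by 2.46 on the log2 scale from E18.5 to 2 wks (SE 0.375, edgeR adjusted p = 6.91e-05), from 265 ± 88.7 to 48.1 ± 11.0 CPM (SD, n = 4 each). The further difference to 29.0 ± 16.8 CPM (SD, n = 4) at 7 wks did not pass the threshold, with a log2 change of -0.73 (95% interval -1.50 to 0.04, edgeR adjusted p = 0.145). It passed without replicate 1 at 7 wks, at -1.13 (adjusted p = 0.0274), with the trend over GC content removed, at -1.12 (adjusted p = 0.00855), and with scaling to the total count, at -1.09 (adjusted p = 0.0361). Against E18.5 the level at 7 wks was 9.15-fold lower (log2 -3.19, SE 0.387, edgeR adjusted p = 5.77e-06).

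*Igf1* is expressed by fibroblasts and macrophages as well as by muscle, and the summed markers of both were lower after birth. The 6 fibroblast markers summed to 5963 to 12271 CPM at E18.5, 4466 to 6128 CPM at 2 wks and 971 to 4080 CPM at 7 wks, with 3 of 6 lower at 2 wks and all 6 lower at 7 wks than at E18.5. Over replicates 1 to 4 their sum was 8860, 12271, 8863 and 5963 CPM at E18.5. It was 5950, 6128, 6008 and 4466 CPM at 2 wks, and 4080, 1689, 1301 and 971 CPM at 7 wks. The order was that of *Igf1* at 7 wks but not at the other ages. The 5 macrophage markers summed to 152 to 185 CPM, 65.2 to 89.5 CPM and 17.6 to 60.2 CPM at the 3 ages. Of these 5 markers 2 were lower and 1 higher at 2 wks, and 4 were lower at 7 wks than at E18.5. Over replicates 1 to 4 at 7 wks they summed to 60.2, 30.0, 24.9 and 17.6 CPM. That order too was that of *Igf1* at 7 wks but not at the other ages. No marker of either list was at 0 in all libraries of an age. In RNA of a whole tissue, fewer cells of a type and less RNA per cell cannot be told apart, and the part of these cells in the fall of *Igf1* was not tested.

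The receptor fell in the first interval and did not pass in the second. *Igf1r* (chr7:67952257-68233668) was at 74.8, 73.2, 51.1 and 57.1 CPM at E18.5, at 25.8, 24.2, 25.2 and 23.7 CPM at 2 wks, and at 25.7, 24.3, 17.4 and 22.5 CPM at 7 wks. The libraries at E18.5 lay above all 8 postnatal ones, which overlapped with each other. The fall to 2 wks was 2.59-fold (log2 -1.37, SE 0.159, edgeR adjusted p = 7.29e-06), and the change from 2 to 7 wks was -0.14 on the log2 scale (95% interval -0.48 to 0.20, edgeR adjusted p = 0.543). With scaling to the total count the latter was -0.49 and passed (adjusted p = 0.0358). The difference between the changes in the 2 intervals was itself tested and was -1.23 (SE 0.278, edgeR adjusted p = 0.00422), in a contrast where 38.4% of all genes passed (21.6% positive and 16.8% negative). For *Igf1* the same contrast was -1.73 (SE 0.640, edgeR adjusted p = 0.0461), which was lost with the GC trend removed (-0.76, adjusted p = 0.251) and without any of 8 single libraries: replicates 1 or 3 at E18.5 (-1.47 and -1.80), any of the 4 at 2 wks (-1.89, -1.77, -1.80 and -1.42) or replicates 1 or 2 at 7 wks (-1.32 and -1.63).

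The docking proteins did not pass the threshold in the main fit (TMM scaling, 12 libraries, 19276 genes, age as the only term). *Irs1* (chr1:82233105-82291439) was at 210.0, 133, 117 and 126 CPM at E18.5, at 137, 155, 152 and 99.8 CPM at 2 wks, and at 140, 124, 96.2 and 77.1 CPM at 7 wks, and all ages overlapped. *Irs2* (chr8:10984681-11008929) was lower, at 16.3, 15.97, 12.4 and 18.4 CPM, then 16.3, 13.4, 8.60 and 7.47 CPM, then 9.53, 8.06, 13.4 and 15.8 CPM. The log2 change from E18.5 to 2 wks was -0.11 for *Irs1* (95% interval -0.60 to 0.39, edgeR adjusted p = 0.696) and -0.46 for *Irs2* (-1.03 to 0.10, adjusted p = 0.136). Settings changed the call for both. With scaling to the total count *Irs1* passed in all 3 comparisons (-1.02 to 2 wks, -0.67 from 2 to 7 wks and -1.69 over the whole span, adjusted p = 0.00132, 0.0416 and 1.42e-05). *Irs2* then passed to 2 wks (-1.36, adjusted p = 0.000615) and over the whole span (-1.71, adjusted p = 7.23e-05). With the GC trend removed *Irs2*, whose transcript has 59.2% GC, passed at -1.78 (edgeR adjusted p = 0.000221), and it also passed without replicate 1 at 2 wks (-0.65, adjusted p = 0.0496). From E18.5 to 7 wks *Irs1* was at -0.42 (edgeR adjusted p = 0.111), and it passed with the GC trend removed (-0.69, adjusted p = 0.0175), with at least 10 counts required in every library (-0.59, adjusted p = 0.0351) and without the 2 libraries of high adipocyte markers (-0.65, adjusted p = 0.0463). It also passed with blocking on the replicate number (-0.43, edgeR adjusted p = 0.0455). *Irs2* over the same span was at -0.43 (edgeR adjusted p = 0.153), and at -1.48 with the GC trend removed (adjusted p = 0.000647).

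Among the 6 binding proteins 3 fell over the span from E18.5 to 7 wks, 2 rose and *Igfbp5* did not pass the threshold. Of all genes 37.1% fell and 34.3% rose over that span. *Igfbp2* (chr1:72824480-72852474), the binding protein linked to fetal tissue, was at 4.50, 17.5, 6.59 and 4.93 CPM at E18.5, at 1.11, 0.876, 0.219 and 0.287 CPM at 2 wks, and at 0, 0.0311, 0.245 and 0.132 CPM at 7 wks. The postnatal values rest on 16 to 85 reads at 2 wks and 0 to 16 reads at 7 wks, and a count of 0 in replicate 1 at 7 wks allows up to 0.0602 CPM by counting error (3 reads). It fell by 3.75 on the log2 scale to 2 wks (SE 0.673, edgeR adjusted p = 0.000259), with no overlap. The fall from 2 to 7 wks was 2.53 (SE 0.785, edgeR adjusted p = 0.0284), with 15 of 16 pairs of libraries lower. That call was lost without any of 5 libraries: replicates 1 or 2 at 2 wks (-2.15 and -2.31, adjusted p = 0.0853 and 0.0743) and replicates 1, 2 or 4 at 7 wks (-2.17, -2.22 and -2.66, adjusted p = 0.0605, 0.0806 and 0.0576). Its highest library, replicate 2 at E18.5, was also the highest in the 5 cartilage and bone markers, with a sum of 142 CPM beside 23.4 to 60.0 CPM in the other 3, 2.95 to 10.5 CPM at 2 wks and 0.597 to 1.37 CPM at 7 wks, where *Matn1* was at 0 in all postnatal libraries. That library also had the highest summed markers of its age for muscle fibres (15686 CPM), satellite cells and myoblasts (177 CPM), fibroblasts (12271 CPM), pericytes and smooth muscle (589 CPM), Schwann cells (76.3 CPM) and epidermis (26.9 CPM). The part of any of these cells in the level of *Igfbp2* was not tested.

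*Igfbp3* (chr11:7206086-7215498), the main carrier of IGFs in serum, fell in both intervals, by about the same factor with TMM scaling. With scaling to the total count its means were 315, 69.1 and 22.6 CPM at E18.5, 2 wks and 7 wks. With TMM its libraries were at 219, 240.0, 139 and 163 CPM at E18.5, 106, 94.2, 52.4 and 56.9 CPM at 2 wks, and 25.0, 33.0, 33.5 and 40.2 CPM at 7 wks, with no overlap between any 2 ages. The falls were 2.46-fold (log2 -1.30, SE 0.252, edgeR adjusted p = 0.000479) and 2.35-fold (log2 -1.23, SE 0.252, edgeR adjusted p = 0.00319), and the contrast between them was -0.06 (95% interval -0.99 to 0.86, edgeR adjusted p = 0.920).

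*Igfbp4* (chr11:99040005-99052655), which holds IGFs until a protease cuts it, fell from 2 to 7 wks. It was at 96.6, 153, 118 and 82.2 CPM at E18.5, at 106, 102, 80.8 and 69.95 CPM at 2 wks, and at 39.4, 31.0, 44.6 and 30.9 CPM at 7 wks. The 7-wk libraries lay below all others, and E18.5 and 2 wks overlapped. The fall from 2 to 7 wks was 2.46-fold (log2 -1.30, SE 0.211, edgeR adjusted p = 0.000786), after a change of -0.33 to 2 wks (95% interval -0.78 to 0.12, edgeR adjusted p = 0.176). The earlier change passed with the GC trend removed, at -1.04 (adjusted p = 0.000308), and with scaling to the total count, at -1.25 (adjusted p = 0.000217). The contrast between the intervals was 0.97 (SE 0.354, edgeR adjusted p = 0.0442) and was not past the threshold with the GC trend removed (0.18, adjusted p = 0.696), with scaling to the total count (0.42, adjusted p = 0.409) or without the 2 libraries of high adipocyte markers (0.81, adjusted p = 0.108). It was lost with no filter (0.93) or with at least 10 counts in every library (0.89). It was also lost without any of 9 single libraries, which were replicates 1, 3 or 4 at E18.5 (0.90, 0.99 and 0.84), replicates 1 to 3 at 2 wks (0.83, 0.85 and 1.07) and replicates 1, 2 or 4 at 7 wks (1.01, 0.90 and 0.90).

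*Igfbp5* (chr1:72858065-72874865), the binding protein most tied to muscle differentiation, was the most abundant of the 10 genes per kb at every age. It was at 717, 779, 579 and 568 CPM at E18.5, at 1086, 1283, 401 and 415 CPM at 2 wks, and at 1007, 808, 739 and 763 CPM at 7 wks. The 2-wk libraries formed a high and a low pair with nothing between, and that spread (796 ± 455 CPM, SD, n = 4) spanned all other libraries. The log2 change was 0.27 to 2 wks (95% interval -0.44 to 0.98, edgeR adjusted p = 0.487), 0.06 from 2 to 7 wks (-0.65 to 0.77, adjusted p = 0.916) and 0.33 over the whole span (-0.38 to 1.03, adjusted p = 0.384), and all 3 turned negative with scaling to the total count (-0.61, -0.33 and -0.95, the last at adjusted p = 0.0243). The same 2 libraries at 2 wks that were high in *Igfbp5* had 476 and 755 CPM of the 5 red blood cell markers, beside 146 and 148 CPM in the low pair. Some other marker sums were split the same way. They were 132 and 111 CPM beside 74.1 and 65.2 CPM for satellite cells and myoblasts, and 436 and 154 CPM beside 132 and 80.8 CPM for Schwann cells. They were 1613 and 1310 CPM beside 1031 and 1061 CPM for pericytes and smooth muscle, and 89.5 and 89.5 CPM beside 71.0 and 65.2 CPM for macrophages. For epidermis they were 3.975 and 3.649 CPM beside 2.684 and 3.488 CPM. Muscle fibres were split the opposite way, at 112601 and 106974 CPM beside 129448 and 122673 CPM. So were cartilage and bone, at 2.95 and 5.79 CPM beside 10.5 and 8.17 CPM. The sums of endothelium, fibroblasts and adipocytes overlapped between the pairs. The high pair also had the higher *Igfbp2*, *Igfbp3*, *Igfbp4*, *Igfbp6*, *Igfbp7* and *Irs2*, while *Igf1*, *Igf1r* and *Irs1* overlapped between the pairs. The part of these cells in the split was not tested.

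*Igfbp6* (chr15:102144186-102149512), which prefers IGF2 as its ligand, rose from a low level. It was at 2.23, 8.34, 3.00 and 3.25 CPM at E18.5, at 29.0, 28.1, 25.2 and 23.4 CPM at 2 wks, and at 11.96, 10.2, 23.8 and 11.8 CPM at 7 wks. All 8 postnatal libraries were above all 4 at E18.5, and replicate 3 at 7 wks was the only one of its age inside the range of 2 wks. The rise to 2 wks was 6.28-fold (log2 2.65, SE 0.384, edgeR adjusted p = 4.53e-05). The later difference was -0.87 (95% interval -1.65 to -0.09) with an edgeR adjusted p of 0.0901, and it passed with scaling to the total count (-1.24, adjusted p = 0.0193), with the 8 libraries of these ages alone (-0.91, adjusted p = 0.0178), without replicate 3 at 7 wks (-1.22, adjusted p = 0.0268) and without replicate 2 at E18.5 (-0.87, adjusted p = 0.0174). Against E18.5 the 7-wk level was 3.43-fold higher (log2 1.78, SE 0.373, edgeR adjusted p = 0.000702), a call that was lost with scaling to the total count at 0.49.

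*Igfbp7* (chr5:77349240-77408045) rose and then partly fell back. It was at 34.1, 44.5, 40.6 and 35.9 CPM at E18.5, at 192, 209, 189 and 172 CPM at 2 wks, and at 72.6, 86.7, 100.2 and 74.7 CPM at 7 wks. No 2 ages overlapped, and 7 wks lay between the others. The rise was 4.91-fold (log2 2.30, SE 0.151, edgeR adjusted p = 6.46e-08), and the fall from 2 to 7 wks was 2.28-fold (log2 -1.19, SE 0.146, edgeR adjusted p = 0.000109). The level at 7 wks stayed 2.16-fold above E18.5 (log2 1.11, SE 0.145, edgeR adjusted p = 1.22e-05), but this turned to -0.18 (adjusted p = 0.312) with scaling to the total count. The contrast between the intervals was 3.49 for *Igfbp7* (SE 0.239, edgeR adjusted p = 6.00e-07) and 3.52 for *Igfbp6* (SE 0.602, edgeR adjusted p = 0.000814).

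The summed level of the 6 endothelial markers was, like *Igfbp7*, highest at 2 wks. It was 354 to 516 CPM at E18.5, 842 to 1013 CPM at 2 wks and 528 to 834 CPM at 7 wks, with 4 of 6 higher at 2 wks and 2 of 6 lower at 7 than at 2 wks. *Kdr* (96.1, 130.0 and 139 CPM) and *Tek* (49.97, 57.7 and 58.3 CPM) had their highest means at 7 wks. The 5 markers of pericytes and smooth muscle summed to 400.2 to 589 CPM, 1031 to 1613 CPM and 876 to 1103 CPM. Of these 5 genes 3 were higher at 2 wks. At 7 wks against E18.5 3 were higher (*Myh11*, *Pdgfrb* and *Rgs5*) and 2 lower (*Acta2* and *Cspg4*). *Rgs5* alone had means of 99.3, 621 and 676 CPM. No marker of either list was at 0 in all libraries of an age, and the part of vessel cells in the level of *Igfbp7* was not tested.

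**Figure D2:**
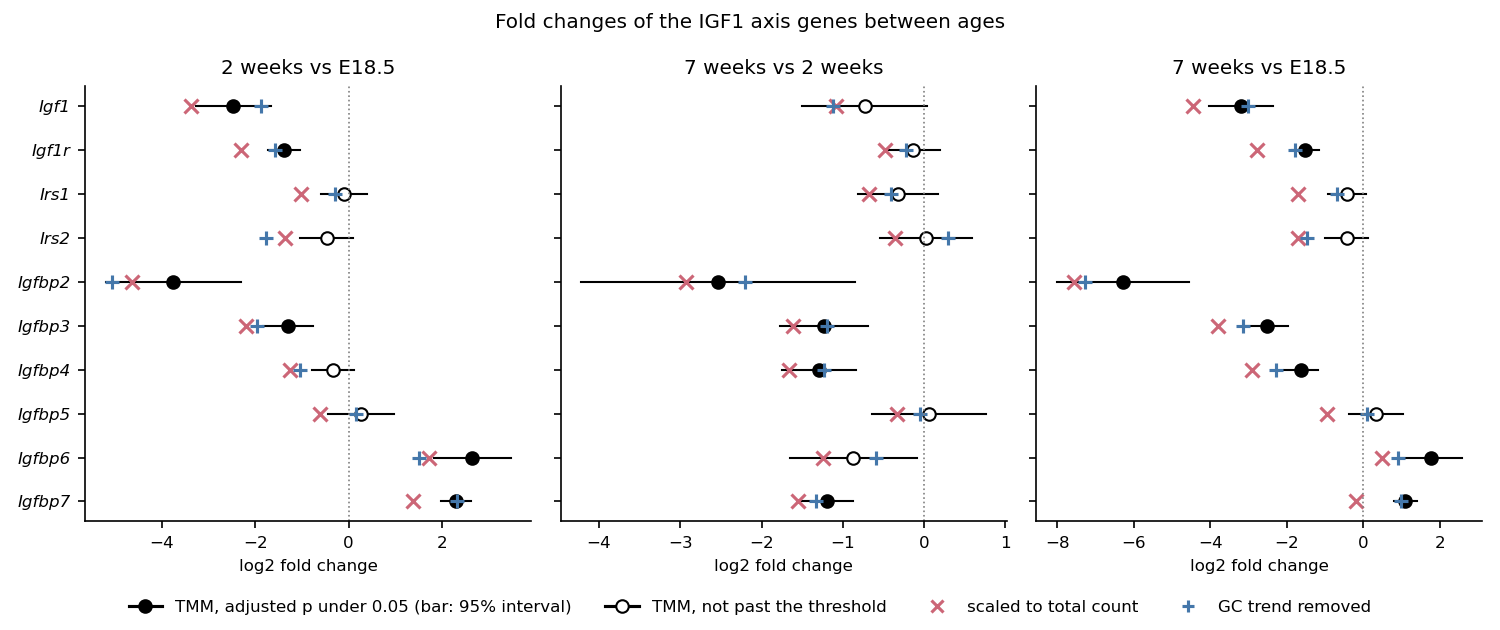
Log2 fold changes (x axis) of the 10 genes (y axis) in the 3 comparisons of ages, from edgeR with TMM scaling (circles, filled where the adjusted p was under 0.05, with 95% intervals). Crosses and plus signs give the same change with scaling to the total count and with the GC trend removed. *Igf1*, *Igf1r*, *Igfbp2* and *Igfbp3* are left of 0 at 2 wks and *Igfbp6* and *Igfbp7* right of it, while *Igfbp5* straddles 0.

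Counted per kb, the make-up of the binding protein transcripts shifted. *Igfbp5* was 48.8% ± 2.42 (SD, n = 4) of the summed level of the 6 IGFBPs at E18.5, then 51.5% ± 11.1 at 2 wks and then 73.5% ± 5.51 at 7 wks, and its lowest share at 7 wks (66.3%) was above its highest at the earlier ages (63.3%). *Igfbp3* went from 30.9% ± 3.16 through 12.01% ± 1.25 to 6.61% ± 1.71, and *Igfbp4* from 13.0% ± 2.44 through 10.3% ± 2.29 to 5.07% ± 0.811. *Igfbp7* and *Igfbp6* took 3.27% ± 0.570 and 1.46% ± 0.675 at E18.5, peaked at 16.3% ± 5.40 and 9.79% ± 2.95 at 2 wks, and stood at 8.42% ± 1.56 and 6.34% ± 2.81 at 7 wks. *Igfbp2* made up 2.65% ± 1.39 at E18.5 and 0.0427% ± 0.0455 at 7 wks. These shares describe libraries, do not depend on the scaling between them, and were not tested.

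**Figure D3:**
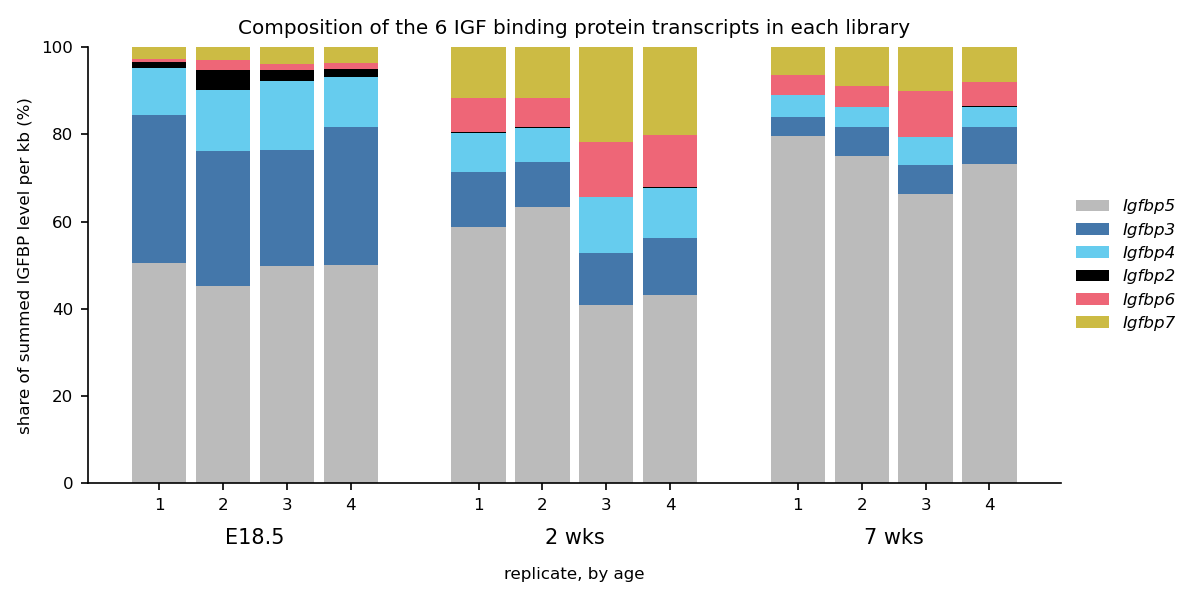
Share (y axis, %) of each IGF binding protein gene in the summed level per kb of the 6 genes, stacked for each of the 12 libraries (x axis, replicates 1 to 4 by age). The share of *Igfbp5* is 66.3% to 79.6% at 7 wks, and that of *Igfbp3* falls from 26.6% to 34.1% at E18.5 to 4.39% to 8.55% at 7 wks.

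With TMM scaling the summed IGFBP level overlapped between all ages, while the ligand fell. The sum was 227 ± 45.5 CPM per kb (SD, n = 4) at E18.5, against 242 ± 93.9 at 2 wks and against 187 ± 16.3 at 7 wks. These levels depend on the scaling and were not tested. With scaling to the total count *Igfbp5*, the largest part of the sum, had means of 1099, 719 and 571 CPM. The ratio of this sum to *Igf1* per kb was 4.22, 8.90, 6.02 and 6.47 in the libraries at E18.5, 37.6, 47.4, 22.4 and 35.0 at 2 wks, and 29.7, 36.8, 72.1 and 93.7 at 7 wks. Every postnatal library was above every one at E18.5, and 2 and 7 wks overlapped. This ratio is given as a description of transcripts.

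In order of level per kb, *Igfbp5* led at each age (110.0, 133 and 138 CPM per kb) and its libraries did not overlap those of the next gene. At E18.5 *Igfbp3* (70.3), *Igf1* (37.5), *Igfbp4* (29.4) and *Irs1* (15.7) followed, each overlapping its neighbour, and then *Igfbp7* (7.26), *Igfbp2* (6.34), *Igf1r* (5.14), *Igfbp6* (3.45) and *Irs2* (2.14), again with overlap between neighbours. At 2 wks *Igfbp7* (35.7), *Igfbp3* (28.6), *Igfbp4* (23.4) and *Igfbp6* (21.7) formed an overlapping group, below which *Irs1* (14.6), *Igf1* (6.80), *Igf1r* (1.98) with *Irs2* (1.56), and *Igfbp2* (0.472) stood apart. *Igf1* thus went from rank 3 of 10 at E18.5 to rank 7 at 2 wks, and it was still at rank 7 at 7 wks (4.10). At 7 wks *Igfbp7* (15.7), *Igfbp3* (12.2), *Igfbp6* (11.8), *Irs1* (11.7) and *Igfbp4* (9.51) overlapped as neighbours. With the union of annotated exons as the length, *Igf1r* and *Irs2* exchanged ranks at 2 and 7 wks, as did *Igfbp3* and *Irs1* at 7 wks.

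Ratios of gene pairs within a library do not depend on scaling between libraries, and 3 pairs were compared in 9 two-sided exact permutation tests of 4 against 4 libraries, where 0.0286 is the smallest p possible and 0.0643 the smallest reached after Benjamini-Hochberg adjustment. *Igf1r* to the insulin receptor gene *Insr* went from a log2 ratio of counts of -0.41 ± 0.400 (SD, n = 4) at E18.5 through -1.41 ± 0.417 to -2.32 ± 0.208. The steps of -1.0 and -0.91 and their total of -1.91 each had an exact p of 0.0286 (adjusted 0.0643) and held in 16 of 16 pairs of libraries. *Igf1* to *Igf2*, the fetal ligand, had log2 ratios of 2.94, 1.56, 2.49 and 2.33 at E18.5, 2.32, 2.32, 3.62 and 2.24 at 2 wks and 6.33, 5.28, 6.22 and 3.37 at 7 wks. It was 2.97 higher at 7 wks than at E18.5 (exact permutation p = 0.0286, adjusted 0.0643, higher in 16 of 16 pairs), with steps of 0.30 (exact p = 0.6) and 2.67 (exact p = 0.0571, adjusted 0.103, higher in 15 of 16 pairs). With the GC trend removed the step to 2 wks was 1.15 (exact p = 0.0286). *Irs2* to *Irs1* differed by -0.43, 0.38 and -0.05 in the 3 comparisons (exact permutation p = 0.200, 0.429 and 0.914), and the first became -1.52 (exact p = 0.0286) with the GC trend removed.

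**Figure D4:**
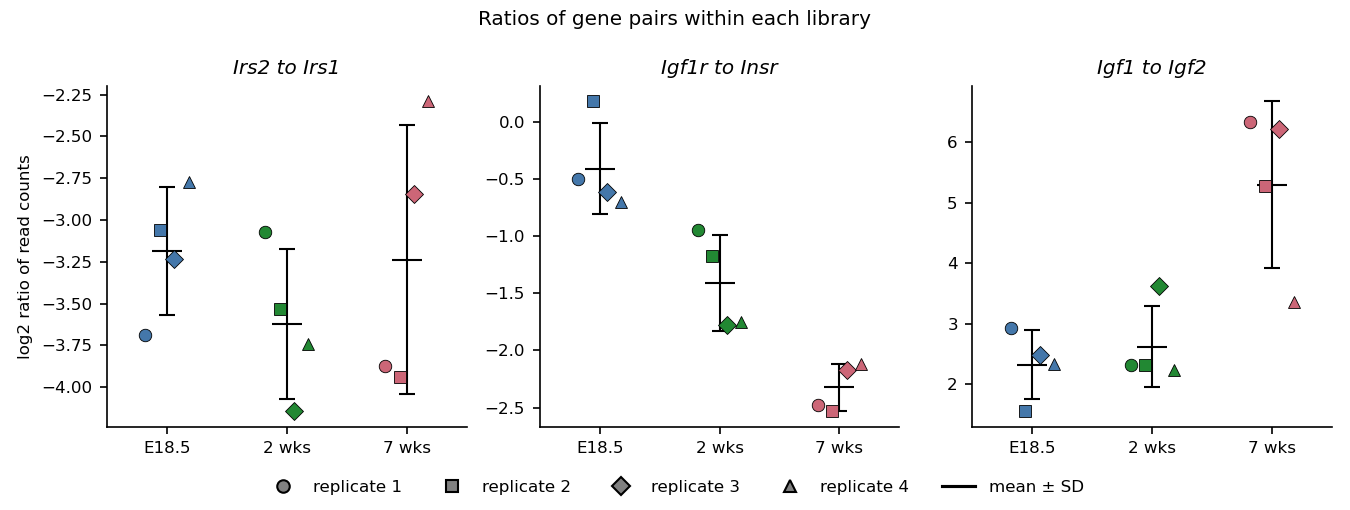
Log2 ratio of read counts (y axis) of 3 gene pairs within each library at E18.5, 2 wks and 7 wks, with symbols for replicates and black marks for the mean ± SD of 4. *Igf1r* to *Insr* steps down at each age without overlap, *Igf1* to *Igf2* is highest at 7 wks, and *Irs2* to *Irs1* overlaps at all ages.

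Another 47 genes of the pathway were taken as a list, of which 45 were tested. *Igfbp1* and *Igfbpl1* had at most 8 and 10 reads in any library and were not. From E18.5 to 2 wks 13 rose and 15 fell, from 2 to 7 wks 12 rose and 7 fell, and over the whole span 14 rose and 15 fell, with medians of -0.03, 0.23 and 0.05 on the log2 scale beside -0.09, -0.03 and -0.09 over all genes. Of all genes 31.5% rose and 34.2% fell by 2 wks. From 2 to 7 wks 13.5% rose and 13.9% fell, and over the whole span 34.3% rose and 37.1% fell. With scaling to the total count the same comparisons gave 3 higher and 30 lower, 4 higher and 11 lower, and 4 higher and 33 lower. With the GC trend removed they gave 8 and 18, 11 and 9, and 17 and 19. Without replicate 1 or without replicate 2 at 2 wks the second comparison gave 5 higher and 7 lower.

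Of the 7 ligands, receptors and carriers 5 were tested, of which 2 rose, 2 fell and 1 did not pass from E18.5 to 2 wks. Of all genes 31.5% rose and 34.2% fell in that interval. The 2 that rose were *Igfals*, from 0.186 to 0.837 CPM, and *Insrr*, from 0.220 to 0.812 CPM, both scarce transcripts. *Igf2* ranged from 40.6 to 77.4 CPM at E18.5, 4.19 to 11.6 CPM at 2 wks and 0.245 to 1.27 CPM at 7 wks, and it fell 6.44-fold and then 10.8-fold (log2 -2.69, SE 0.399, and -3.44, SE 0.435, edgeR adjusted p = 5.64e-05 and 0.000130). *Igf2r*, which takes up IGF2 for breakdown, fell from 285 ± 46.3 to 119 ± 10.01 CPM by 2 wks (log2 -1.26, edgeR adjusted p = 6.69e-05). *Insr* rose from 67.5 ± 18.2 to 115 ± 31.9 CPM between 2 and 7 wks (log2 0.77, edgeR adjusted p = 0.0290), but not with scaling to the total count (0.44, adjusted p = 0.139) and not without replicates 1 or 2 at 2 wks (0.63 and 0.67) or replicates 1 or 2 at 7 wks (0.64 and 0.66).

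Of the 7 genes of the growth hormone branch, which drives *Igf1* transcription in liver, 4 rose by 2 wks (*Jak2*, *Stat5a*, *Stat5b* and *Cish*, where 31.5% of all genes rose and 34.2% fell) and none fell, also at an unadjusted p under 0.05 or in DESeq2. *Stat5b*, the transcription factor that carries the signal, ranged from 28.8 to 51.2 CPM at E18.5, 133 to 157 CPM at 2 wks and 206 to 291 CPM at 7 wks (log2 1.93 and 0.72, edgeR adjusted p = 1.34e-06 and 0.00885), the second step being 0.37 (adjusted p = 0.133) with scaling to the total count. The kinase *Jak2* rose by 0.52 and then 1.25 (edgeR adjusted p = 0.0108 and 0.000147), and the first step was -0.41 (adjusted p = 0.0250) with scaling to the total count and 0.51 (adjusted p = 0.0542) without the 2 libraries of high adipocyte markers. The receptor *Ghr* rose from 94.9 ± 5.51 to 206 ± 34.3 CPM between 2 and 7 wks (log2 1.11, SE 0.173, edgeR adjusted p = 0.000554). *Cish*, a feedback inhibitor that STAT5 switches on, was highest at 2 wks, with 22.7 ± 6.92, 86.9 ± 30.3 and 22.4 ± 10.1 CPM at the 3 ages (log2 1.94 and -1.96, edgeR adjusted p = 0.000229 and 0.00127). *Socs3*, another inhibitor of this branch, fell from 2 to 7 wks (log2 -1.34, edgeR adjusted p = 0.00374).

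Of the 5 genes for proteases that cut IGFBPs and their inhibitors, 3 fell by 2 wks (34.2% of all genes) and 4 were lower at 7 wks than at E18.5 (37.1% of all genes), with none higher in any comparison in edgeR, also at an unadjusted p under 0.05, or in DESeq2. *Pappa2*, whose product cuts IGFBP3 and IGFBP5, ranged from 3.09 to 8.32 CPM at E18.5 and from 0.170 to 0.285 CPM at 2 wks (log2 -4.58, SE 0.350, edgeR adjusted p = 2.36e-07). *Pappa*, whose product cuts IGFBP4, fell from 3.55 ± 1.01 to 1.26 ± 0.621 CPM (log2 -1.49, edgeR adjusted p = 0.00266). The inhibitor *Stc1* fell by 2 wks (log2 -1.63, edgeR adjusted p = 0.000133), and *Stc2* fell from 9.70 ± 0.484 to 3.67 ± 0.789 CPM between 2 and 7 wks (log2 -1.40, edgeR adjusted p = 0.000244).

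Of 7 adaptors, 2 rose and 4 fell by 2 wks (31.5% and 34.2% of all genes). *Grb10*, an imprinted gene whose product restrains IGF1R and the insulin receptor, ranged from 923 to 1366 CPM at E18.5, 161 to 273 CPM at 2 wks and 48.9 to 75.1 CPM at 7 wks, falling by 2.41 and 1.67 on the log2 scale (SE 0.227 and 0.222, edgeR adjusted p = 1.34e-06 and 0.000181). Its relative *Grb14* moved the other way by 2 wks, from 9.35 ± 2.42 to 45.4 ± 8.40 CPM (log2 2.28, SE 0.203, edgeR adjusted p = 8.50e-07). *Irs4* was at 0.278 to 20.6 CPM at E18.5, at most 0.0168 CPM at 2 wks and 0 reads in all 4 libraries at 7 wks, and no fold is given for it. Its 2 highest libraries at E18.5 were replicates 3 and 4, those of high adipocyte markers. The part of adipocytes in its level was not tested.

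Of the 21 genes of the PI3K-AKT-mTOR-FOXO branch, 5 rose and 6 fell by 2 wks (31.5% and 34.2% of all genes), and 6 rose and none fell from 2 to 7 wks (13.5% and 13.9% of all genes), also at an unadjusted p under 0.05 or in DESeq2. Of these 6, *Gsk3b*, *Pik3ca* and *Akt2* were near the threshold (edgeR adjusted p = 0.0454, 0.0448 and 0.0354). Over the whole list of 47 pathway genes, 12 rose in that interval, and 5 did without replicate 1 or without replicate 2 at 2 wks. *Pik3r1*, the regulatory subunit of PI3K, fell from 109 ± 41.8 to 43.5 ± 5.43 CPM by 2 wks (log2 -1.32, SE 0.248, edgeR adjusted p = 0.000373). *Foxo4*, a transcription factor that AKT keeps out of the nucleus, stood at 44.3 ± 6.25, 85.6 ± 13.9 and 249.9 ± 39.9 CPM, a rise of 0.95 and then 1.55 (edgeR adjusted p = 0.000217 and 4.68e-05), of which the first was 0.19 (adjusted p = 0.264) with the GC trend removed and 0.01 with scaling to the total count. *Tsc1*, a brake on mTOR, rose from 36.6 ± 6.38 to 75.2 ± 13.9 CPM between 2 and 7 wks (log2 1.04, SE 0.163, edgeR adjusted p = 0.000599). *Akt2*, the AKT gene most tied to insulin action, rose from 151 ± 16.4 to 252 ± 29.1 CPM (log2 0.74, edgeR adjusted p = 0.0354), a call that was lost with scaling to the total count (0.40, adjusted p = 0.224) and without any of 6 single libraries, which were replicates 1 to 3 at 2 wks (0.69, 0.70 and 0.75) and replicates 2 to 4 at 7 wks (0.77, 0.69 and 0.70).

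**Figure D5:**
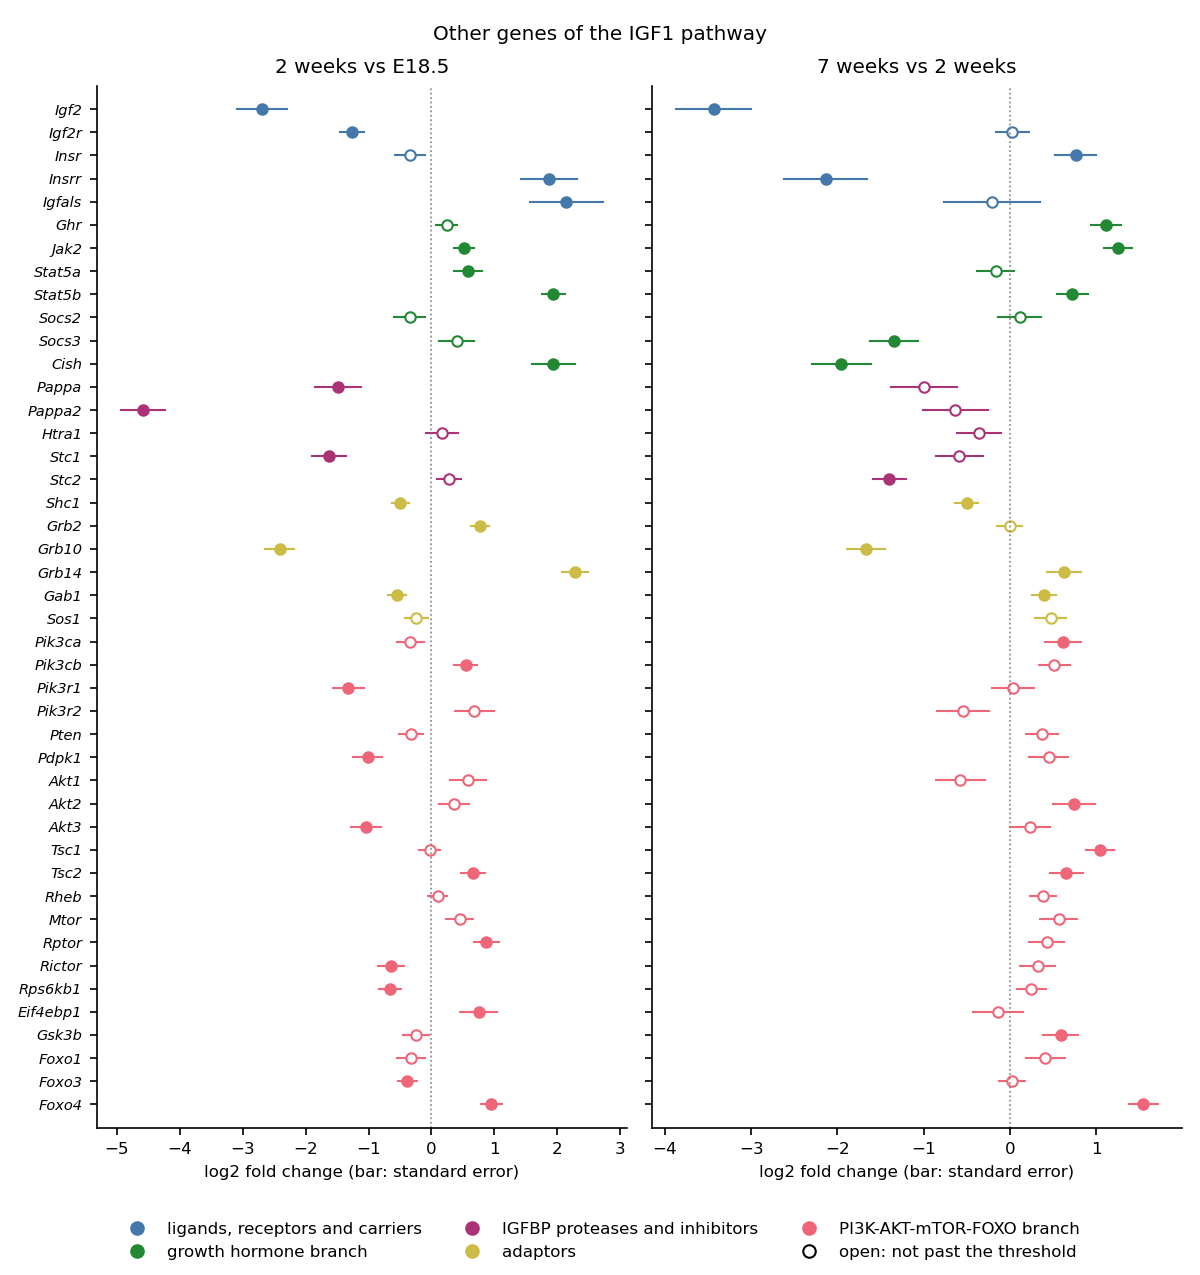
Log2 fold changes (x axis, bars are standard errors) of 44 other genes of the IGF1 pathway (y axis, coloured by sublist) from E18.5 to 2 wks and from 2 to 7 wks, filled where the edgeR adjusted p was under 0.05. *Irs4* is left out because it had 0 reads at 7 wks. *Pappa2*, *Igf2* and *Grb10* lie farthest left at 2 wks, with log2 changes of -4.58, -2.69 and -2.41.

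The genes whose pattern over the 12 libraries came nearest were found among 8800 protein-coding genes whose log2 CPM averaged 3 or more, by the root mean square difference of log2 CPM with each gene centred on its mean. For *Igf1* they were *Dse*, *Colec12* and *Cdk14* (0.25, 0.28 and 0.29), and for *Igf1r* they were *Ebf3*, *Spin1* and *Usp22* (0.12, 0.13 and 0.13). The largest fall from E18.5 to 7 wks was that of *Igfbp2*, and nearest to it were the slow and cardiac forms of contractile genes *Tnni1*, *Tnnt2* and *Myh7*, at a much larger distance (1.05, 1.14 and 1.14). Nearest to *Igfbp6*, with the largest rise, were *Ltbp4*, *Hcfc1r1* and *Orai1* (0.25, 0.28 and 0.30).

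Over the alternatives run, the adjusted p of a gene whose call depended on them covered a wide range. It ran from 0.00855 to 0.314 for *Igf1* from 2 to 7 wks from 0.0125 to 0.0853 for *Igfbp2* and from 0.0174 to 0.209 for *Igfbp6* in the same interval. For *Igf1r* and *Irs1* in that interval the lowest were 0.0358 and 0.0416, and the highest 0.892 and 0.616. To 2 wks it ran from 0.000217 to 0.535 for *Igfbp4*, from 0.000221 to 0.351 for *Irs2* and from 0.00132 to 0.930 for *Irs1*. From E18.5 to 7 wks it ran from 1.42e-05 to 0.396 for *Irs1*, from 7.23e-05 to 0.371 for *Irs2*, from 0.0244 to 0.783 for *Igfbp5*, from 7.62e-06 to 0.220 for *Igfbp6* and from 1.05e-11 to 0.312 for *Igfbp7*. In the contrast between intervals it ran from 0.0117 to 0.251 for *Igf1*, from 0.0114 to 0.696 for *Igfbp4* and from 0.0114 to 0.818 for *Irs2*. Of the other pathway genes it ran from 0.0138 to 0.139 for *Insr*, from 0.000192 to 0.133 for *Stat5b* and from 0.00165 to 0.224 for *Akt2* from 2 to 7 wks, and from 0.000271 to 0.0542 for *Jak2* and from 2.52e-06 to 0.967 for *Foxo4* to 2 wks.

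Exons of 5 of the genes overlap a gene on the opposite strand in the annotation used here: *Pgpep1l* shares 1247 bases with *Igf1r*, and *Polr2b* shares 747 bases with *Igfbp7*, while *Irs1*, *Irs2* and *Igfbp3* share 22 to 366 bases with long noncoding RNAs. The strand setting of the counting is not given in the sources used here, so reads in those bases may belong to either gene.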

How the data were processed

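The RNA was sequenced as stranded, poly(A)-selected, paired-end libraries. The authors deposited raw read counts per Ensembl gene. Their processing notes, per the labels, name bcl2fastq 2.17.1.14, cutadapt 1.10, STAR 2.5.3a, HTSeq 0.6.1p1 and build mm10, while the methods of the paper name GRCm39. The annotation release is not given in the sources used here. Coordinates and promoter windows come from RefSeq tables of GRCm38.p6, and names, transcript lengths and GC content from GENCODE vM39, which named 51477 of the 55450 genes. Both *Igfbp2* windows were searched.

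Counts were filtered with filterByExpr (19276 genes kept), scaled by TMM and tested in one fit of 12 libraries with age as the only term (edgeR 4.0.16, limma 3.58.1, R 4.3.3), and the biological coefficient of variation was 0.279. Each library is from a separate mouse, and the edgeR test sets the difference between ages against the spread between libraries of an age. That spread holds any differences in the tissue taken as well as those between mice. No pair of libraries agreed within sampling noise. Ratios were tested with scipy 1.17.1 under Python 3.11.15, and figures were drawn with matplotlib 3.10.9. The edgeR and DESeq2 fits were also run on simulated counts in which few genes changed, and only at 2 wks. In these data 65.7% of tested genes changed from E18.5 to 2 wks, so that run cannot show how the fits behave here. The ratio tests were not part of it. The 10 genes, the 47 pathway genes and the marker lists were chosen with earlier results of these data known. All 10 genes, any of the 47 and the 3 nearest genes of *Igf1*, *Igf1r* and the genes with the largest rise and fall were open to naming. Alternatives were scaling to the total count, DESeq2 1.42.0, TMM without the 20 most abundant and the mitochondrial genes, removal of each library's trend over GC content, blocking on the replicate number, fitting just the 8 libraries of an age pair, testing all genes with a read, requiring 10 or more reads in each library, and leaving out each library in turn. Leaving out 2 libraries of high adipocyte markers and the union of exons as length were added after seeing the data. Whether the numbers of the replicates pair the samples was not settled, as the closing section gives.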

Additional observations from a re-analysis of the deposited data

Results flagged for a closer look

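Of 39 sets of 4 libraries examined (each of the 10 genes and the 3 ratios at each age), 5 held a library whose gap to the nearest of the others took more of the whole range than Dixon's 95% limit for 4 values allows. Chance flags about 1 in 20 sets, which is 1.95 of 39. *Igf1* was at 397 CPM in replicate 1 at E18.5, beside 207 to 228 CPM in the other 3. *Igfbp2* and *Igfbp6* were both highest in replicate 2 at E18.5, at 17.5 CPM beside 4.50 to 6.59 CPM and at 8.34 CPM beside 2.23 to 3.25 CPM. *Igfbp6* was at 23.8 CPM in replicate 3 at 7 wks, beside 10.2 to 11.96 CPM. The log2 ratio of *Igf1* to *Igf2* was 3.62 in replicate 3 at 2 wks, beside 2.24 to 2.32.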

How the results depend on the processing

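In the 3 comparisons of ages the counts of the 10 genes called stayed within 1.5 times their value under the alternatives run, except that scaling to the total count gave 8 calls from 2 to 7 wks (0 higher, 8 lower) in place of 4, a scaling that lowers the median of all genes with age. Leaving out each library in turn gave 6 to 7, 3 to 5 and 7 to 7 calls in the 3 comparisons and 3 to 5 in the contrast between intervals, where 5 fell to 3 without any of 7 libraries: replicates 1 or 3 at E18.5, 1, 2 or 3 at 2 wks, or 1 or 2 at 7 wks. Of the other 47 pathway genes it left 25 to 31, 12 to 25 and 26 to 29 calls. Without the 2 E18.5 libraries of high adipocyte markers, 6, 4, 8 and 4 of the 10 genes were called. With at least 10 counts in every library *Igfbp2* was not tested.

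For single genes, signs turned where the change was small and not called, with the exceptions of *Igfbp7* and *Jak2*. With scaling to the total count they were -0.61, -0.33 and -0.95 for *Igfbp5* in the 3 comparisons and -0.28 in the contrast between intervals, -0.35 for *Irs2* from 2 to 7 wks, -0.18 for *Igfbp7* from E18.5 to 7 wks, -0.35 for *Irs1* in the contrast, and -0.41 for *Jak2* to 2 wks. From 2 to 7 wks *Irs2* was at -0.017 with at least 10 counts in every library and -0.007 with only 8 libraries, and *Igfbp5* at -0.054 with the GC trend removed. In the contrast *Irs1* was at -0.019 without the 2 libraries of high adipocyte markers. Leaving out single libraries gave ranges across 0 for *Irs1* to 2 wks (-0.21 to 0.12), *Igfbp5* to 2 wks (-0.049 to 0.50), *Irs2* from 2 to 7 wks (-0.15 to 0.23), *Igfbp5* from 2 to 7 wks (-0.16 to 0.39), and in the contrast *Igfbp3* (-0.40 to 0.24) and *Igfbp5* (-0.44 to 0.66). Of ratios, *Irs2* to *Irs1* was at -1.52 (2 wks against E18.5) and -0.74 (7 wks against E18.5) and *Igf1r* to *Insr* at -1.39 (2 wks against E18.5) with the GC trend removed. Single libraries moved *Irs2* to *Irs1* between -0.36 and 0.18 (7 wks against E18.5) and *Igf1* to *Igf2* between -0.037 and 0.50 (2 wks against E18.5). Other than where the construction of the scaling shows it, the cause was not tested.

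Of 12 same-numbered pairs of libraries between ages, 5 had deviations correlated over 0.1, with r from -0.28 to 0.51. Pairs with different numbers were not compared, so these values cannot show whether the replicate numbers pair the samples. With the replicate block the counts were 6, 4, 8 and 5, the fall of *Igfbp2* from 2 to 7 wks was -2.38 (edgeR adjusted p = 0.0528), that of *Igf1* was -0.87 (adjusted p = 0.0177), *Irs1* from E18.5 to 7 wks was -0.43 (adjusted p = 0.0455), *Insr* from 2 to 7 wks was 0.76 (adjusted p = 0.0531) and the contrast of *Igfbp5* was -0.081. Depth limits *Igfbp2* after birth, with at most 85 reads in a library, *Igf2* and its ratio at 7 wks (at most 77 reads), *Pappa2* at 2 wks (at most 26 reads), and *Igfals*, *Insrr* and *Irs4* after birth (at most 90, 87 and 1 reads).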
